A study of Homo sapiens with 6 samples.

Results

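Replacement histone variants are histones whose genes lie outside the replication-dependent clusters and whose mRNAs end in a poly(A) tail, so they can be made and deposited throughout the cell cycle. The 9 genes described here were H2AZ1 and H2AZ2 (histone H2A.Z), H2AX, H2AJ, H3-3A and H3-3B (histone H3.3), MACROH2A1 and MACROH2A2 (macroH2A) and H1-10 (linker histone H1.10). They were chosen by name, and every transcript that GENCODE assigns to them was summed, giving 9 genes of 36415 in all. All 9 passed the low-count filter and were among the 15765 genes tested. The cells were HCT116, a cell line established from a human colorectal carcinoma. Their MCM2, a subunit of the replicative helicase MCM2-7, is fused to a mini auxin-inducible degron (mAID), which directs the protein to degradation when auxin is present. Auxin-treated cells (3-indoleacetic acid, 500 µM, for 6 h per the study's methods) gave 3 libraries, and cells given the solvent DMSO gave 3. Per the study's methods, all cells were synchronised with a double thymidine block and sorted by DNA content for the left part of the G1 peak before poly(A) selection. Every library came from degron cells, so auxin itself and loss of MCM2 cannot be told apart.

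The auxin libraries held between 62.8 and 66.8 M estimated counts and the DMSO libraries between 52.5 and 68.4 M. The degron acts on the protein, so the MCM2 transcript does not check the labels, and MCM2 mRNA differed by -0.06 ± 0.049 on the log2 scale (auxin minus DMSO ± standard error, the form used for every log2 fold change here, adjusted p = 0.557). Of 10 colon epithelial markers 9 were tested and 2 passed the test described next, with a summed level of 4299 to 4499 CPM in auxin libraries and 4651 to 5137 CPM in DMSO libraries, a shift whose part in the results below was not tested. CPM are counts relative to the library size after TMM scaling. The 8 leukocyte markers summed to 1.72 to 2.40 CPM in auxin libraries and 1.59 to 2.02 CPM in DMSO libraries, and none was at 0 in all libraries. The 6 fibroblast markers summed to 31.6 to 39.6 CPM in auxin libraries and 27.2 to 35.7 CPM in DMSO libraries. At a false discovery rate of 0.1, used for every call here, the quasi-likelihood test of edgeR called 1069 genes, or 6.78% of those tested, 681 higher and 388 lower in auxin. The number was 187 without auxin replicate 2 and 1591 without DMSO replicate 1. Nothing in the labels says that the replicates were separate cultures. The study describes the RNA-seq libraries as independent replicates, without naming the unit that was repeated. The p-values rest on the spread among these 6 libraries alone. In bulk samples, fewer cells of a type and less RNA per cell cannot be told apart.

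In chromatin, H2A.Z takes the place of H2A at promoters and regulatory elements and is installed by the SRCAP and p400/TIP60 complexes. H2AX is the variant whose C-terminal tail is phosphorylated around DNA breaks. H3.3 marks active genes through the chaperone HIRA and is placed at telomeres and pericentric repeats by DAXX and ATRX. MacroH2A carries a large macrodomain and is associated with silent chromatin, including the inactive X chromosome. H2A.J differs from canonical H2A mainly at its C terminus, and H1.10 is a divergent linker histone.

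The feature that sets the replacement genes apart is the 3′ end of their mRNA. Most mRNAs are cleaved downstream of a hexamer, AATAAA or ATTAAA, and polyadenylated, whereas replication-dependent histone mRNAs end just after a short stem-loop and carry no tail. The last 30 bases of the leading transcript of each gene are shown because they carry the signal for the tail that poly(A) selection uses. They are written 5′ to 3′ on the coding strand from GENCODE release 44 (hg38), with the hexamer in capitals.
H2AZ1-201, minus strand of chr4:99948088-99948117: ggataagttcAATAAAggtcatatcccaaa
H2AZ2-201, minus strand of chr7:44826791-44826820: tgatggaATTAAAtatattctgtgtaaaaa
H2AX-202, minus strand of chr11:119093874-119093903: attttATTAAAggattgttttttttttaaa
H2AJ-203, plus strand of chr12:14774995-14775024: ggcgggagccAATAAAgttggtgaaaatcg
H3-3A-203, plus strand of chr1:226071990-226072019: acATTAAActatacctgcttttggtcttta
H3-3B-201, minus strand of chr17:75776434-75776463: atgagactaaAATAAAatttttgaagttaa
MACROH2A2-201, plus strand of chr10:70112253-70112282: AATAAAagatccagtgtctttcttacaaca
H1-10-201, minus strand of chr3:129314771-129314800: ttgggcacAATAAAgcgtttaaacctttca
These 8 ends hold AATAAA in H2AZ1, H2AJ, H3-3B, MACROH2A2 and H1-10, and ATTAAA in H2AZ2, H2AX and H3-3A. The annotated end of MACROH2A1-201 holds neither hexamer in its last 60 bases. Over all annotated transcripts of protein-coding genes, 31.3% hold one of the 2 hexamers in the last 30 bases, and over those of replication-dependent histone genes 16.3% do. These shares cover every annotated transcript, not only the leading transcript of each gene, so they are not like for like with the ends shown.

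H2AX is the exception among the 9, since its gene also encodes the histone stem-loop and can give either kind of 3′ end. The stem-loop lies in H2AX at chr11:119094891-119094920 on the minus strand, shown here with 7 bases on each side and the stem-loop in capitals.
H2AX stem-loop: ccacaaaGGCCCTTTTAAGGGCCaccaccg
The search, on the transcript strand, was for a stem of 6 bases that begins with GG and ends with T, a loop of TTT and any base, and the exact reverse complement of the stem. It was met in 2 of 2 annotated H2AX transcripts, in 0 transcripts of the other 8 genes, in 79 of 19965 protein-coding genes (0.396%) and in 64 of 70 replication-dependent histone genes (91.4%). From the end of the stem-loop, 1024 bases remain to the polyadenylated end of H2AX-202 shown above. Poly(A) selection captures the extended form, and an H2AX mRNA that ended at the stem-loop would have no tail to select.

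Promoters of the 9 genes, the 250 bases before the RefSeq start site (GRCh38.p14), were searched on both strands for a core promoter element, TATAAA, and for the motif that NF-Y binds, which is CCAAT. The core element was found in 4 of the 9 genes (H2AZ1, H2AX, H3-3B and H1-10), against 10.7% of all promoters. CCAAT was found in 7 of the 9, all except MACROH2A2 and H1-10, against 32% of all promoters. A gene was counted when any of its RefSeq entries matched, whereas the shares are over all 35116 promoter entries, so the 2 measures are unlike. A match describes the letters only. The promoters of H2AZ1 and H2AX are shown because these genes had the lowest fold changes, with both motifs, and ATTGG as the NF-Y motif on the opposite strand, in capitals.
H2AZ1, minus strand of chr4:99950276-99950525: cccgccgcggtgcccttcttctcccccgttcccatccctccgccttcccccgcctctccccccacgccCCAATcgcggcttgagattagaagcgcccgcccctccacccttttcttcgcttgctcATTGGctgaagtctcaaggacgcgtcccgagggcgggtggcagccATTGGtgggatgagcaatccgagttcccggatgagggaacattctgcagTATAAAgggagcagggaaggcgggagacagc
H2AX, minus strand of chr11:119095466-119095715: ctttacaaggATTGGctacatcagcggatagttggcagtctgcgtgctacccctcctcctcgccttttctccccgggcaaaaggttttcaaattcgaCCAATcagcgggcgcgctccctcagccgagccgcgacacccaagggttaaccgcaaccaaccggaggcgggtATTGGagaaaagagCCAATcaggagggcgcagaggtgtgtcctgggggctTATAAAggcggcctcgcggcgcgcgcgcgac
In both promoters TATAAA began 31 bases before the start site. H2AZ1 had 1 CCAAT and 2 ATTGG, and H2AX had 2 of each.

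The 9 genes were expressed over a wide range. Levels between genes are compared as TPM, a transcript abundance that corrects for length. H3-3B was highest, at 2492 ± 115 TPM in auxin and 2530 ± 41.9 TPM in DMSO (the SD of 3 libraries, as in the rest of these values). H2AZ1 followed at 1321 ± 16.6 TPM in auxin and 1423 ± 55.7 TPM in DMSO. H3-3A, the other H3.3 gene, had 408 ± 2.69 TPM in auxin and 422 ± 13.4 TPM in DMSO. Next came 3 genes at close levels. MACROH2A1 had 194 ± 5.93 TPM in auxin and 189 ± 6.63 TPM in DMSO, H2AX 174 ± 12.8 TPM in auxin and 186 ± 6.49 TPM in DMSO, and H2AZ2 168 ± 5.54 TPM in auxin and 166 ± 8.62 TPM in DMSO. The libraries of MACROH2A1 and H2AX overlapped in both groups, and those of H2AX and H2AZ2 overlapped in auxin but not in DMSO. H1-10 had 50.6 ± 4.61 TPM in auxin and 52.5 ± 2.23 TPM in DMSO, MACROH2A2 32.9 ± 1.82 TPM in auxin and 33.01 ± 1.72 TPM in DMSO, and H2AJ 18.9 ± 0.793 TPM in auxin and 19.96 ± 0.704 TPM in DMSO. The remaining neighbours in this order did not overlap in either group.

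H2AZ1 was the only one of the 9 genes that passed the test, and it fell, with a fold change of 0.89. It encodes the main H2A.Z protein, lies at chr4:99948086-99950355 (minus strand, hg38) and overlaps the divergent lncRNA H2AZ1-DT on the opposite strand. H2AZ1 mRNA had 731, 737 and 727 CPM in auxin libraries, against 778, 871 and 817 CPM in DMSO libraries. Every auxin library was below every DMSO library, and the DMSO libraries were spread more widely. The log2 fold change was -0.17 ± 0.047 (95% interval -0.27 to -0.06, adjusted p = 0.0860, edgeR quasi-likelihood test). The call did not hold without auxin replicate 1 (adjusted p = 0.125), 2 (0.266) or 3 (0.233) or without DMSO replicate 2 (0.157) or 3 (0.182), and it held without DMSO replicate 1 (0.0265). It was also lost when the trend of fold change with transcript length was removed (log2 fold change -0.11, adjusted p = 0.144). With DESeq2 the adjusted p was 0.0130.

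H2AZ2, which encodes an H2A.Z protein that differs from that of H2AZ1 at only a few residues, was at nearly equal levels in the 2 groups. It had 159, 153 and 152 CPM in auxin libraries, against 160, 151 and 155 CPM in DMSO libraries. The log2 fold change was -0.00 ± 0.041 (adjusted p = 0.969), with a 95% interval of -0.09 to 0.09, and its sign changed when auxin replicate 2, auxin replicate 3 or DMSO replicate 1 was left out (0.00, 0.01 and 0.00). The share of H2A.Z mRNA that came from H2AZ1 was compared as well. It was 82.1%, 82.8% and 82.7% of the estimated counts in auxin libraries, against 83.0%, 85.2% and 84.1% in DMSO libraries. All auxin libraries were lower than all DMSO libraries, with a mean of 82.5% ± 0.357 in auxin, against 84.1% ± 1.1 in DMSO (SD, n = 3 each). The difference was -1.55 percentage points (2-sided exact permutation p = 0.1, the smallest that 3 against 3 libraries allow, 0.4 after Benjamini-Hochberg adjustment over 4 shares). It was -0.99 without DMSO replicate 2, -2.09 without DMSO replicate 1 and -0.80 when shares were taken of TPM.

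**Figure D1:**
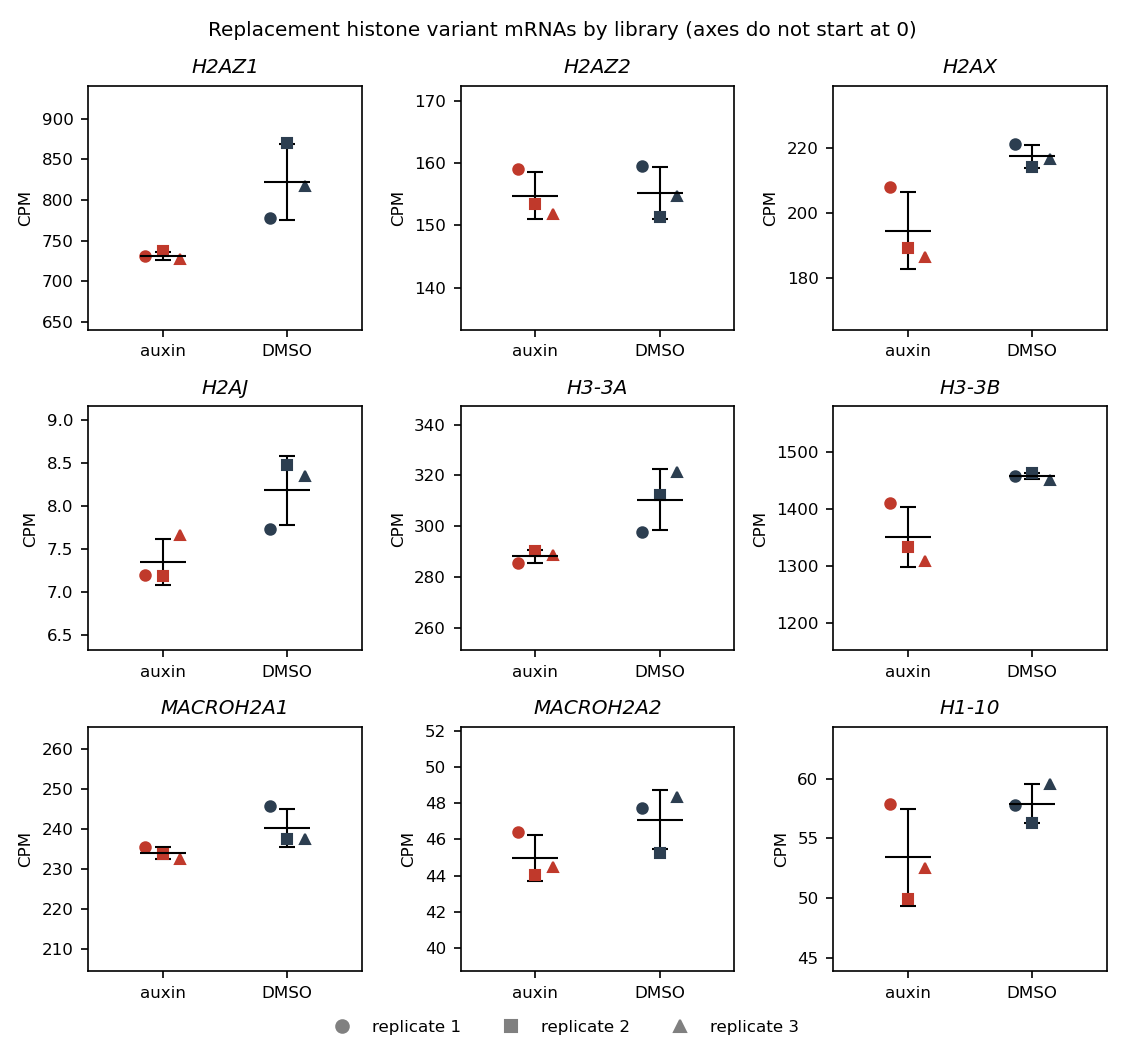
Normalised level (CPM) of the 9 genes, 1 point per library with its replicate number as the symbol, auxin in red and DMSO in dark blue, with the mean and SD of 3 libraries. Auxin libraries lie below DMSO libraries without overlap in H2AZ1, H2AX, H2AJ, H3-3A, H3-3B and MACROH2A1. The axes do not start at 0.

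H2AX missed the threshold narrowly. H2AX, at chr11:119093874-119095465 (minus strand), overlaps no other annotated gene. It had 208, 189 and 186 CPM in auxin libraries, against 221, 214 and 217 CPM in DMSO libraries. The groups did not overlap, and auxin replicate 1 was nearest to the DMSO libraries. The log2 fold change was -0.16 ± 0.048 (95% interval -0.27 to -0.05, adjusted p = 0.101). Without auxin replicate 1 the value was -0.21 (adjusted p = 0.0315), and with DESeq2 it was -0.17 (adjusted p = 0.0301). With the length trend removed, the upper quartile factors or the other count filters, the log2 fold change was between -0.17 and -0.15, with length and GC removed it was -0.14, and it was -0.10 on either TPM scale (adjusted p = 0.378 on log2(TPM + 1), limma).

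H2AJ, at chr12:14774405-14778002 (plus strand), is known as a variant that accumulates in senescent human fibroblasts and had the lowest level of the 9. It had 7.20, 7.18 and 7.66 CPM in auxin libraries, against 7.73, 8.48 and 8.34 CPM in DMSO libraries. These values rest on 439 to 480 estimated counts in auxin libraries and 422 to 506 in DMSO libraries. The groups did not overlap, but the gap between auxin replicate 3 and DMSO replicate 1 was small. The log2 fold change was -0.15 ± 0.076, with a wide 95% interval of -0.32 to 0.01 (adjusted p = 0.272).

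The H3.3 genes encode the same protein from different mRNAs and had nearly equal fold changes. H3-3A, at chr1:226061851-226072019 (plus strand), had 285, 290 and 289 CPM in auxin libraries, against 298, 312 and 321 CPM in DMSO libraries. Its log2 fold change was -0.11 ± 0.041 (95% interval -0.20 to -0.02, adjusted p = 0.172), and without DMSO replicate 1 it was -0.15 (adjusted p = 0.0746). Again the groups were apart, and the auxin libraries were within a narrow range. H3-3B, at chr17:75776434-75785893 (minus strand), had 1410, 1333 and 1309 CPM in auxin libraries, against 1457, 1462 and 1451 CPM in DMSO libraries. Its log2 fold change was also -0.11 ± 0.043 (95% interval -0.20 to -0.01, adjusted p = 0.177), and DESeq2 gave -0.12 with an adjusted p of 0.0801. Here the DMSO libraries were tight and auxin replicate 1 stood above the other auxin libraries.

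H3-3A held 17.6% ± 0.668 of the estimated counts of the H3.3 pair in auxin, against 17.6% ± 0.582 in DMSO (SD, n = 3 each). The difference was 0.03 percentage points (2-sided exact permutation p = 1), and its sign depended on the library left out. H3.3 genes have many processed pseudogenes, whose reads kallisto could divide with the parent genes. The 47 annotated H3 pseudogenes together took 17 to 143 estimated counts per library, against at least 15537 for H3-3A. H3-3B also overlaps UNK on the opposite strand, which had a mean of 33.2 CPM in auxin libraries and 29.8 CPM in DMSO libraries.

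The macroH2A genes had small fold changes. MACROH2A1, at chr5:135334381-135399914 (minus strand), had 235.5, 233.9 and 232.5 CPM in auxin libraries, against 245.9, 237.6 and 237.7 CPM in DMSO libraries. There was no overlap, although the gap was smaller than the range within the auxin group. The log2 fold change was -0.04 ± 0.037 (95% interval -0.12 to 0.04, adjusted p = 0.590), and on the TPM scale its sign was positive. It was 0.04 on log2(TPM + 1), where the median of all genes was 0.05. MACROH2A2, at chr10:70052544-70112282 (plus strand) and overlapped on the opposite strand by AIFM2, had 46.4, 44.03 and 44.5 CPM in auxin libraries, against 47.7, 45.2 and 48.3 CPM in DMSO libraries. The groups overlapped, and the log2 fold change was -0.07 ± 0.048 (adjusted p = 0.449). MACROH2A1 held 83.9% ± 0.318 of the estimated counts of the pair in auxin, against 83.6% ± 0.464 in DMSO (SD, n = 3 each), a difference of 0.26 percentage points (2-sided exact permutation p = 0.6).

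MACROH2A1 makes macroH2A1.1 and macroH2A1.2 by choosing between 2 coding exons that exclude each other. The macrodomain of macroH2A1.1 binds ADP-ribose, and that of macroH2A1.2 does not. The exons are shown because their counts separate the forms.
macroH2A1.1 exon, minus strand of chr5:135350823-135350913: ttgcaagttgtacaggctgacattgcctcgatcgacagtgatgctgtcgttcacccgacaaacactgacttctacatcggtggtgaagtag
macroH2A1.2 exon, minus strand of chr5:135352946-135353045: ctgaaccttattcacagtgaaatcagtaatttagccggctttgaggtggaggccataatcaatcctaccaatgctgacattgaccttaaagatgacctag
The macroH2A1.1 exon has 91 bases and the macroH2A1.2 exon has 100, a difference that keeps the reading frame. Of the quantified transcripts, 1 held the macroH2A1.1 exon (MACROH2A1-202) and 3 held the macroH2A1.2 exon. The macroH2A1.1 form made up 15.1%, 14.9% and 17.7% of the estimated counts with either exon in auxin libraries, against 15.9%, 16.8% and 15.4% in DMSO libraries. The groups overlapped, and the means were 15.9% ± 1.58 in auxin and 16.04% ± 0.729 in DMSO (2-sided exact permutation p = 0.9, n = 3 each). MacroH2A1.2 was thus the main form in all 6 libraries.

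**Figure D2:**
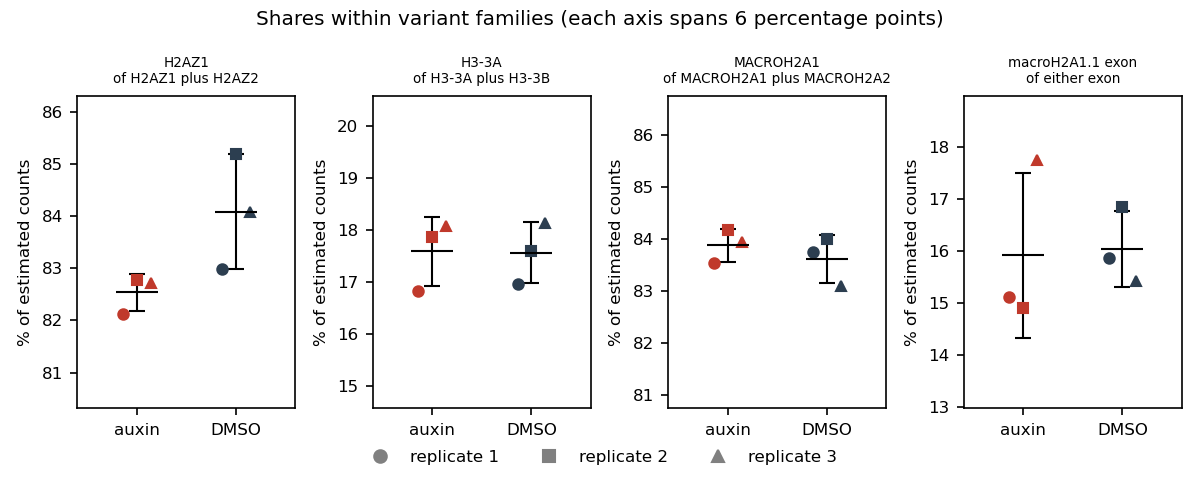
Share of the estimated counts of each pair held by the gene or form named in the panel title, 1 point per library, with the mean and SD of 3 libraries. The share of H2AZ1 lies between 82.1% and 82.8% in auxin libraries and between 83.0% and 85.2% in DMSO libraries, and the groups overlap in the other panels.

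H1-10, at chr3:129314771-129316286 (minus strand) and overlapped by the antisense lncRNA H1-10-AS1, had 57.8, 49.9 and 52.5 CPM in auxin libraries, against 57.8, 56.3 and 59.6 CPM in DMSO libraries. Auxin replicate 1 lay within the DMSO libraries, while the other auxin libraries were lower. The log2 fold change was -0.12 ± 0.058 (95% interval -0.24 to 0.01, adjusted p = 0.277), and -0.18 without auxin replicate 1 (adjusted p = 0.0924).

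In all, 9 of 9 genes had a log2 fold change below 0, with a median of -0.11, but H2AZ2 was above 0 with the length trend removed, and H2AZ2 and MACROH2A1 were above 0 on the TPM scale. Over all genes tested 46.5% were below 0 and the median was 0.01. On log2(TPM + 1) the median of all genes was 0.05, against 0.02 for H2AZ2 and 0.04 for MACROH2A1. The test was passed by 1 of the 9 genes, against 6.78% of all genes called in either direction and 2.46% called lower. In CPM, auxin libraries were all below DMSO libraries in 6 of the 9 genes, against 13% of all genes. Groups were apart in either direction in 26.7% of all genes. In TPM, only H2AZ1 and H3-3A of the 6 stayed apart, while H2AX, H2AJ, H3-3B and MACROH2A1 overlapped. The share of all genes with groups apart in TPM was not counted. An unadjusted p under 0.05 was reached by 4 of the 9, against 21.1% of all genes. DESeq2 called 3 of the 9 (H2AZ1, H2AX and H3-3B), against 10.4% of all genes, and limma-voom called 1, H2AZ1, against 6.07%. The libraries are the same for every gene, so the 9 genes are not separate tests of the treatment.

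**Figure D3:**
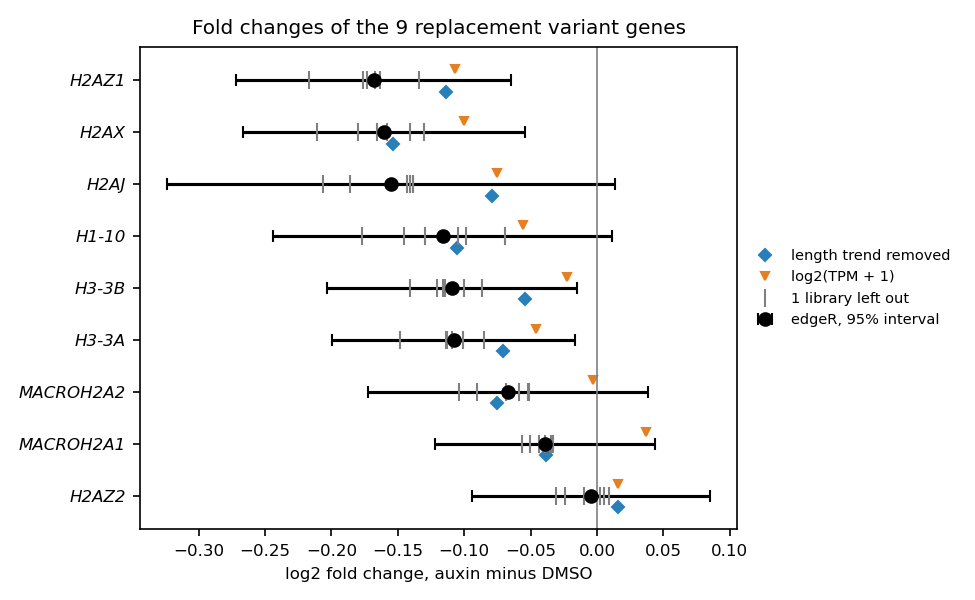
Log2 fold change (auxin minus DMSO) of each gene with its 95% interval from edgeR (black), the values with 1 library left out (grey ticks), with the trend on length removed (blue) and on the log2(TPM + 1) scale (orange). The intervals of H2AZ1, H2AX, H3-3A and H3-3B lie below 0. Most blue and orange values are nearer to 0 than the black ones.

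Fold change moved with transcript length in these libraries, with a Spearman correlation of 0.294 across genes, which share the same libraries. The median log2 fold change was -0.06 in the quintile of genes with the shortest effective length and 0.09 in the quintile with the longest. The effective lengths of the 9 genes, as means over their annotated transcripts weighted by abundance, ran from 498 bases in H2AJ to 1741 bases in MACROH2A2. Some leading transcripts are longer than these means, with 2705 bases in H3-3B-201 and 3804 bases in H2AZ2-201. H2AZ1, H2AJ, H3-3A and H3-3B were in the shortest quintile, H2AZ2, H2AX, MACROH2A1 and H1-10 in the next, and MACROH2A2 in the middle one. With the length trend removed, the median of the 9 genes was -0.08 and that of all genes -0.02, and 8 of 9 genes were below 0. In that fit 0 of 9 passed the test, against 4.78% of all genes. On the log2(TPM + 1) scale the median of the 9 was -0.05 and that of all genes 0.05, with 7 of 9 below 0. With effective length offsets the median of the 9 was -0.11 and that of all genes 0.02.

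**Figure D4:**
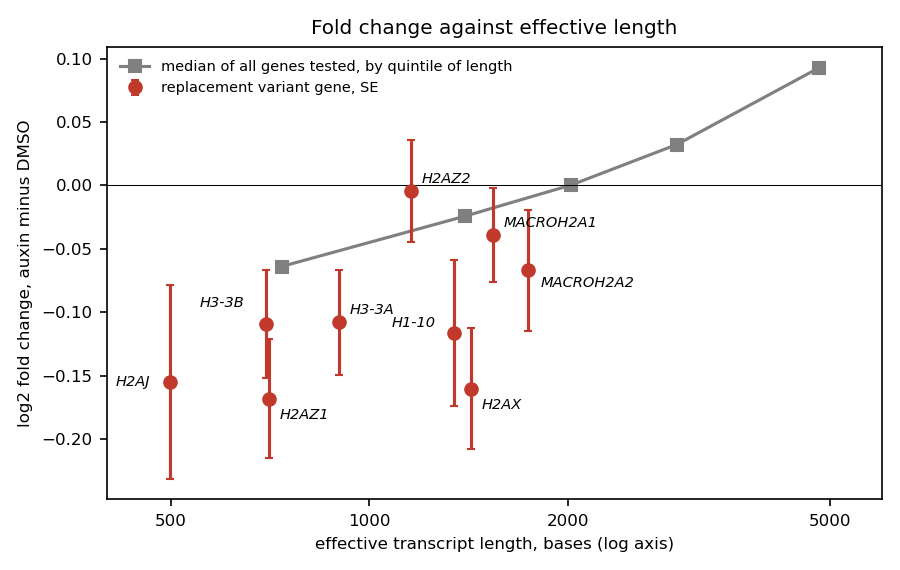
Log2 fold change (auxin minus DMSO) against effective transcript length in bases (log axis), for the 9 genes (red, with SE) and as the median of all genes tested in each quintile of length (grey). The grey medians run from -0.06 to 0.09, and H2AZ2 lies above the line that joins them. H2AX, H3-3A, MACROH2A1, MACROH2A2 and H1-10 lie below that line. H2AZ1, H2AJ and H3-3B are shorter than its first point.

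Within the genes, 97 transcripts were listed and 61 were tested. None passed the edgeR test or limma-voom, 5 of 61 had an unadjusted p under 0.05, against 6.58% of all transcripts tested, and 2 of 78049 transcripts (0.00256%) were called in all. For H2AZ1, H3-3A, H2AX, H2AJ, MACROH2A2 and H1-10 a leading transcript held most counts. The shares were 96.9% for H2AZ1-201, 98.7% for H3-3A-203, 94.3% for H2AX-202 and 94.2% for H2AJ-203. They were 84.3% for MACROH2A2-201 and 100% for H1-10-201. The log2 fold changes were -0.17 for H2AZ1-201, -0.11 for H3-3A-203, -0.16 for H2AX-202 and -0.14 for H2AJ-203. They were -0.08 for MACROH2A2-201 and -0.11 for H1-10-201. The longer H2AZ2-201 held 45.2% and had a log2 fold change of 0.05 ± 0.064, while the shorter H2AZ2-204 held 19.6% and had -0.07 ± 0.055. H3-3B had 13 listed transcripts, 5 of which held at least 5% of its counts each, with H3-3B-201 at 30.6% of the counts and a log2 fold change of -0.19 ± 0.064 (adjusted p = 0.713).

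H2AJ-202, annotated as a target of nonsense-mediated decay, held 5.72% of H2AJ. It had 0.351, 0.369 and 0.354 CPM in auxin libraries, against 0.492, 0.533 and 0.5 CPM in DMSO libraries. Groups were apart here, as in 14.2% of all transcripts tested, and the log2 fold change was -0.50 ± 0.25 (adjusted p = 0.807). MACROH2A1-203, which has no defined coding sequence, held 16.3% of its gene and had a log2 fold change of -0.24 ± 0.12 (adjusted p = 0.809).

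**Figure D5:**
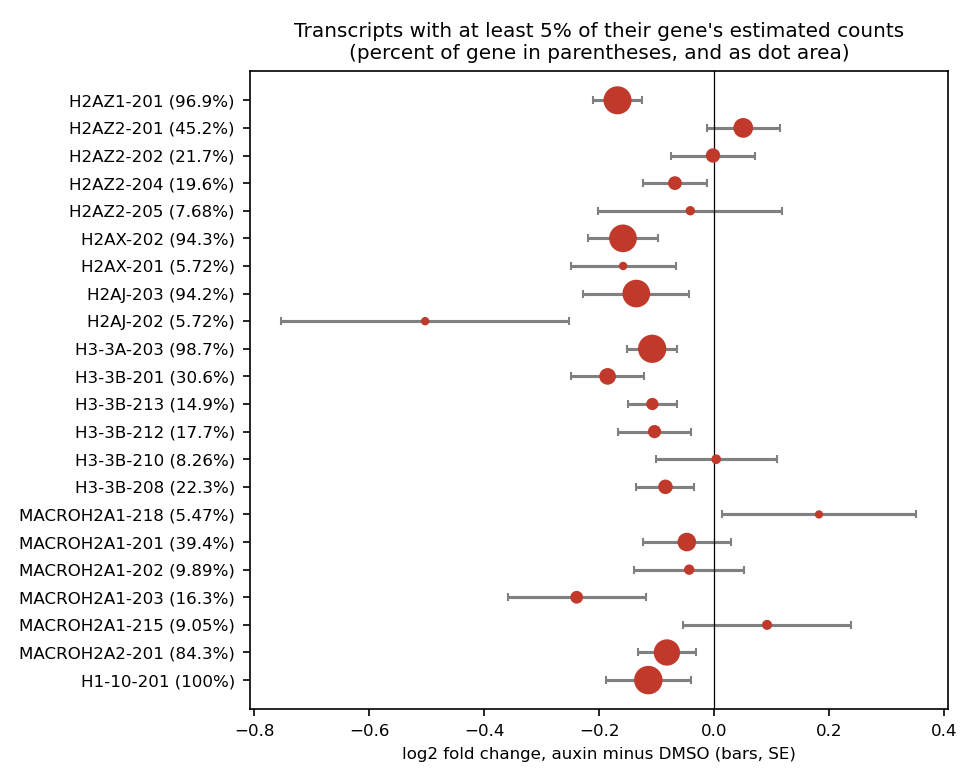
Log2 fold change (auxin minus DMSO) with SE of the 22 transcripts that held at least 5% of the estimated counts of their gene, with dot area proportional to that share. Values of 18 of the 22 lie below 0, and those above 0 belong to H2AZ2-201, H3-3B-210, MACROH2A1-218 and MACROH2A1-215.

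Genes that install, chaperone or read these variants were followed as lists. For H2A.Z, 21 of 21 genes of the exchange complexes were tested, 2 rose and 0 fell, against 6.78% of all genes called in either direction, and the median log2 fold change was -0.01. BRD8, a bromodomain subunit of the TIP60 complex, rose, with 52.0, 58.3 and 59.1 CPM in auxin libraries, against 46.3, 46.9 and 44.4 CPM in DMSO libraries (log2 fold change 0.30 ± 0.056, adjusted p = 0.0230). SRCAP, the ATPase that exchanges H2A for H2A.Z, also rose, with 22.6, 25.2 and 23.3 CPM in auxin libraries, against 20.1, 19.95 and 19.1 CPM in DMSO libraries (log2 fold change 0.27 ± 0.060, adjusted p = 0.0481). In both genes every auxin library was above every DMSO library. The BRD8 call was lost without auxin replicate 2 (adjusted p = 0.134) and DMSO replicate 3 (0.110), and the SRCAP call without auxin replicate 2 (0.228) or 3 (0.112) and without DMSO replicate 2 (0.124) or 3 (0.162). SRCAP was not called with effective length offsets (0.185) or on the TPM scales (0.162 and 0.148). The count of calls in this list was 0 without auxin replicate 2 or DMSO replicate 3, 1 without auxin replicate 3 or DMSO replicate 2, and 5 without DMSO replicate 1. Over the fits with 1 library left out, 1.19% to 10.1% of all genes were called. DESeq2 called 4 of the list, against 10.4% of all genes.

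For H3.3, 7 of 7 deposition genes were tested and 0 passed the edgeR or limma-voom test. Of the 7, 2 had an unadjusted p under 0.05, against 21.1% of all genes. DESeq2 called 1, UBN2, against 10.4% of all genes. The median log2 fold change of the 7 was -0.00. UBN2, a HIRA complex subunit, had 21.4, 24.6 and 21.8 CPM in auxin libraries, against 19.8, 20.1 and 17.7 CPM in DMSO libraries (log2 fold change 0.24 ± 0.074, adjusted p = 0.113), and it passed with DESeq2 (0.0670) and without auxin replicate 1 (0.0841). With the length trend removed the UBN2 value was 0.03 (adjusted p = 0.842), and with length and GC removed 0.04. DAXX passed without DMSO replicate 3 (-0.28, adjusted p = 0.0753) and is named after its value was seen. UBN1, the paralogue of UBN2, had a log2 fold change of 0.09 ± 0.041 (adjusted p = 0.236) and reversed to -0.01 with the length trend removed.

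For H2AX, 11 of 12 genes of its phosphorylation and its readers were tested and 0 passed edgeR, DESeq2 or limma-voom. Of the 11, 1 had an unadjusted p under 0.05, against 21.1% of all genes, and the median was 0.04. PPM1D, a phosphatase known to act on phosphorylated H2AX, had 68.9, 75.3 and 74.3 CPM in auxin libraries, against 61.5, 62.8 and 69.7 CPM in DMSO libraries (log2 fold change 0.17 ± 0.058, adjusted p = 0.132). PPM1D passed without auxin replicate 1 (adjusted p = 0.0819), with no count filter (0.0788) and on the TPM scales (limma, 0.0949 and 0.0866). Its log2 fold change was 0.06 with protein-coding transcripts only (adjusted p = 0.755) and 0.12 with the length trend removed (0.313). PRKDC, a kinase of H2AX named after its value was seen, passed without DMSO replicate 1 (0.23, adjusted p = 0.0834). TP53BP1, which accumulates at breaks marked by phosphorylated H2AX, had a log2 fold change of 0.08 ± 0.043 (adjusted p = 0.288).

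Of the 5 macroH2A partners tested, 1 rose, against 6.78% of all genes called in either direction, and the median was -0.00. This was PARP9, an ADP-ribosyltransferase family member with macrodomains of its own, at 8.43, 7.58 and 8.39 CPM in auxin libraries, against 6.87, 6.93 and 6.17 CPM in DMSO libraries (log2 fold change 0.29 ± 0.084, adjusted p = 0.0928). The PARP9 call was lost without auxin replicate 1 (adjusted p = 0.142), 2 (0.191) or 3 (0.243) and without DMSO replicate 2 (0.151) or 3 (0.252). It was lost too with limma-voom (0.104), effective length offsets (0.296), the length trend removed (0.161), length and GC removed (0.138), protein-coding transcripts only (0.124) and on the TPM scales (0.238 and 0.278).

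CENPA, the centromeric H3 variant, had 11.4, 9.66 and 9.56 CPM in auxin libraries, against 9.07, 8.40 and 8.51 CPM in DMSO libraries. Its log2 fold change was 0.24 ± 0.087 (adjusted p = 0.156), in the opposite direction to the 9 genes. It did not pass with DESeq2 or limma-voom, and without auxin replicate 1 the value was 0.15 (adjusted p = 0.311).

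Replication-dependent histone mRNAs, of which poly(A) selection takes few, were low in both groups. Of 70 genes 28 were tested, 26 of them had a log2 fold change below 0, 5 fell and 0 rose, and the median was -0.36. Over all genes 46.5% were below 0 and 2.46% were called lower. On either TPM scale 2 of the 28 were called, against 2.06% of all genes on log2(TPM + 1) and 2.45% on log2(TPM + 0.1). Their summed level was 50.8 to 52.7 CPM in auxin libraries, against 63.2 to 70.1 CPM in DMSO libraries. H2BC12 fell, with 11.8, 11.97 and 11.8 CPM in auxin libraries, against 15.1, 16.6 and 15.7 CPM in DMSO libraries (log2 fold change -0.41 ± 0.064, adjusted p = 0.00871). H2AC6 also fell (log2 fold change -0.40 ± 0.071, adjusted p = 0.0185), as did H4C3 (-1.02 ± 0.27, adjusted p = 0.0754), H2BC11 (-0.73 ± 0.19, adjusted p = 0.0760) and H4C9, named after its value was seen (-0.38 ± 0.11, adjusted p = 0.0896). H4C3 was low, at 0.459 to 0.7497 CPM in auxin libraries and 0.785 to 1.427 CPM in DMSO libraries. H2BC11 had 0.5104 to 0.6932 CPM in auxin libraries and 0.9082 to 1.145 CPM in DMSO libraries. Neither was called with DESeq2 or effective length offsets, and H4C3 was not called with limma-voom or on the TPM scales. With 1 library left out, H2BC12 and H2AC6 stayed called, at adjusted p up to 0.0569 and 0.0832. H2AC6 was not called with protein-coding transcripts only (log2 fold change -0.22, adjusted p = 0.754) or on the TPM scales (0.116 and 0.105). H4C3 was lost without auxin replicate 1 or 2 or DMSO replicate 2 or 3 (0.117 to 0.267), H2BC11 without auxin replicate 1, 2 or 3 or DMSO replicate 2 or 3 (0.107 to 0.223), and H4C9 without auxin replicate 2 or 3 or DMSO replicate 2 or 3 (0.151 to 0.252). The count of calls ran from 2, without auxin replicate 2, DMSO replicate 2 or DMSO replicate 3, to 7 without DMSO replicate 1. In fits with 1 library left out, 1.19% to 10.1% of all genes were called. The count was 3 with DESeq2, against 10.4% of all genes. Genes of this class share long stretches of sequence, and reads may be divided between them.

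Of the 10 genes of histone mRNA 3′ end processing, 0 passed edgeR or limma-voom. DESeq2 called 1 (SLBP, adjusted p = 0.0652), against 10.4% of all genes. An unadjusted p under 0.05 was reached by 1, against 21.1% of all genes, and the median was 0.00. SLBP, the protein that binds the stem-loop, had 271, 269 and 260 CPM in auxin libraries, against 293, 286 and 285 CPM in DMSO libraries. Every auxin library was the lower (log2 fold change -0.11 ± 0.038, adjusted p = 0.141). LSM11, a subunit of the U7 particle, had a log2 fold change of 0.12 ± 0.065 (adjusted p = 0.310), which was -0.01 with the length trend removed.

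The gene whose pattern over the 6 libraries was most like each variant was looked up among 9352 genes with at least 10 CPM, as a description. MRPL48 was most like H2AZ1 (Pearson r of log2 CPM 0.998), SIRT1 most like H2AZ2 (0.997), CYP24A1 most like H2AX (0.996) and PRPS1 most like H2AJ (0.998). DGUOK was most like H3-3A (0.995), ING1 most like H3-3B (0.994), WDR43 most like MACROH2A1 (0.990), KDM1A most like MACROH2A2 (0.995) and MFAP1 most like H1-10 (0.992). With 6 libraries such values are common, and between 34 and 179 genes exceeded 0.95 for each variant. Among the 9, H2AX and H3-3B were the closest pair (r = 0.985). Auxin replicate 1 was the highest auxin library in both, as it was in H2AZ2, MACROH2A1, MACROH2A2 and H1-10.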

How the data were processed

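Poly(A)-selected, strand-specific paired-end libraries of HCT116 MCM2-mAID cells were quantified by the authors with kallisto on hg38. The deposited estimated counts per transcript are the authors' kallisto values, not normalised and not always whole. The authors then tested transcripts with sleuth at a false discovery rate of 0.1. For the kallisto strand setting and transcript release, the answer is not given in the sources used here. Identifiers without version were matched to GENCODE release 44 (89.8% of 199240 transcripts, 96.2% to 96.3% of counts per library), summed per gene and rounded. Genes and transcripts were tested with edgeR 4.0.16 (R 4.3.3; quasi-likelihood, robust, TMM, minimum count 10, minimum total 15) with treatment as the only term and Benjamini-Hochberg adjustment over all features, called at adjusted p under 0.1. This adjusted p is meant wherever no tool is named. Log2 fold changes are auxin minus DMSO. TPM values were computed from the deposited counts and effective lengths. Alternatives used DESeq2 1.42.0, limma 3.58.1 and mgcv 1.9.3. The tests were checked on simulated counts.

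The variants, gene lists and rules were chosen with earlier results of these data known. Named genes were the 9 variants, up to 4 called genes per list with the smallest p (the 2 with the smallest p where none was called), the gene most correlated with each variant, and transcripts holding at least 5% of their gene. From the list of other replacement variants, 1 gene is not reported here.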

Additional observations from a re-analysis of the deposited data

How the results depend on the processing

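The count of called genes (1069) was 383 with effective length offsets, 325 on the log2(TPM + 1) scale, 387 on log2(TPM + 0.1), 1638 with DESeq2, and 187 to 1591 with 1 library left out. Of the 9 variants 1 was called, against 3 with DESeq2, 2 with upper quartile factors, no count filter or a stricter one (50 counts), and 0 with effective length offsets, on either TPM scale, with the length trend or the length and GC trend removed, or with protein-coding transcripts only. Of all genes, 10.4% were called with DESeq2, 6.65% with upper quartile factors, 4.97% with no filter and 9.48% with the stricter one. In the settings just listed with 0 variants called, 2.06% to 6.06% of all genes were called. With 1 library left out, 0 to 2 variants were called, against 1.19% to 10.1% of all genes. All 9 fold changes stayed below 0 with DESeq2, limma-voom, upper quartile factors, both count filters, effective length offsets and protein-coding transcripts. The cause of the changes listed here was not tested.

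H2AZ1 lost its call with effective length offsets (log2 fold change -0.1709), on log2(TPM + 1) (-0.1066) and log2(TPM + 0.1) (-0.1067), with the length trend (-0.1136) or the length and GC trend removed (-0.1143) and with protein-coding transcripts only (-0.1735). H2AX passed the threshold with DESeq2 (-0.1683), upper quartile factors (-0.1668), no filter (-0.1593) and a stricter filter (-0.1640), and H3-3B with DESeq2 (-0.1171). H2AZ2 turned positive on log2(TPM + 1) (0.0156) and log2(TPM + 0.1) (0.0157) and with the length trend (0.0159) or the length and GC trend removed (0.0105), and MACROH2A1 on both TPM scales (0.0368 and 0.0370). The difference in the share of H3-3A was -0.2011 percentage points by TPM. With the length trend and the length and GC trend removed, UBN1 reversed to -0.0133 and -0.0190 and LSM11 to -0.0090 and -0.0096, and TP53BP1 to -0.0051 with length and GC removed.

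With 1 library left out, log2 fold changes ranged from -0.2168 to -0.1343 for H2AZ1, -0.0311 to 0.0093 for H2AZ2, -0.2109 to -0.1302 for H2AX, -0.1485 to -0.0852 for H3-3A and -0.1772 to -0.0691 for H1-10. The difference in share ranged from -0.2722 to 0.4079 percentage points for H3-3A and -1.0323 to 0.3880 for the macroH2A1.1 exon.

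The labels do not say whether replicate numbers pair the samples, and the values do not settle it. Deviations from the group means correlated at 0.177, 0.051 and 0.067 between libraries of the same number. Between libraries of unlike numbers they correlated at -0.108 to 0.050, and each library correlated best with its own number. With the replicate number as a block, 4865 genes (30.9%) and 5 variants were called, H2AZ1, H2AX (log2 fold change -0.1615), H3-3A (-0.1073), H3-3B (-0.1098) and H1-10 (-0.1170), and 0 transcripts of the variants. The block also called CENPA (adjusted p = 0.0143), 11 of the 21 H2A.Z exchange genes and 11 of the 28 replication-dependent histone genes. With the block and the length trend removed, 4098 genes (26%) and 3 variants were called, H2AZ1, H2AX (-0.1551) and H1-10 (-0.1067), while H2AZ2 was at 0.0161, UBN1 at -0.0118 and LSM11 at -0.0085, and CENPA was called (adjusted p = 0.00539). A term for replicate 1 against the others, chosen after seeing the data, gave 3863 genes (24.5%) and 5 variants, with H2AX at -0.1615, H3-3A at -0.1074, H3-3B at -0.1097 and H1-10 at -0.1179, and called CENPA (adjusted p = 0.0244). H2AJ, with 422 to 506 counts a library, was the variant most limited by depth.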

Other observations

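Summed over both H3.3 genes, the level was 1695, 1623 and 1597 CPM in auxin libraries, against 1754, 1774 and 1773 CPM in DMSO libraries, and the groups did not overlap. On the TPM scale the H3.3 sums were 3034, 2817 and 2851 in auxin libraries, against 2962, 2975 and 2918 in DMSO libraries, and they overlapped through auxin replicate 1. Both H2A.Z genes together gave 1515, 1475 and 1478 TPM in auxin libraries, against 1541, 1638 and 1590 TPM in DMSO libraries, without overlap. The macroH2A genes together had 227 ± 7.39 TPM in auxin and 222 ± 8.24 TPM in DMSO (SD, n = 3 each).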
